A study of Sus scrofa with 22 samples.

Results

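The miR-532 and miR-500 cluster is a group of small RNA genes on the X chromosome, described here in subcutaneous fat of pigs. Every miRNA name equal to miR-532, miR-500, miR-362, miR-660 or miR-502, with or without an arm suffix, was taken from the deposited count tables. This gave 5 names of the 250 in the tables: miR-532-5p, miR-500, miR-500-5p, miR-362 and miR-660. Together they held 61 of 8409 named sequences and 63967 of 37002566 named reads. miR-532-5p carried 96.4% of the reads of these names.

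The study addressed fatness in pigs with small RNA libraries from subcutaneous fat of 22 female pigs aged 6 months. The pigs were of 3 breeds, and each was labelled as having thick or thin subcutaneous fat. There were 4 Pietrain pigs with thick and 3 with thin fat, 4 Large White pigs with thick and 4 with thin fat, and 5 Hampshire pigs with thick and 2 with thin fat. All pigs shared sex, age and tissue, none carried a named treatment, and the labels give no thickness in units.

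A miRNA is a short RNA that guides Argonaute proteins to messenger RNAs, mainly through its seed, bases 2 to 8 from the 5′ end. In mammals the genes of this cluster lie close together within introns of CLCN5, a gene for a chloride transporter, and neighbouring miRNA genes of this kind are often made from shared primary transcripts. In the RefSeq gene table for Sscrofa11.1, MIR532, MIR500 and MIR362 follow each other on chromosome X, with USP27X before and CLCN5 after them.

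The most abundant sequence of each name is shown first, because seeds separate the members into different targeting groups. Sequences were read from the deposited tables and run 5′ to 3′, with the seed in capitals.
miR-532-5p: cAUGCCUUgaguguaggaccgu
miR-500: aUGCACCUgggcaaggauucuga
miR-500-5p: uAAUCCUUgcuaccugggugagagu
miR-362: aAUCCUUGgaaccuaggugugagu
miR-660: uACCCAUUgcauaucggaguug
The 5 seeds differed, and no other name in the tables had a most abundant sequence with any of them. Bases 1 to 7 of miR-362, AAUCCUU, were the same letters as the seed of miR-500-5p, so these members offer the same run of bases 1 position apart. The 3′ arms of miR-500, miR-501 and miR-502 are nearly identical in other mammals, so the name given to the miR-500 reads is uncertain.

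Libraries held 430712 to 3136842 named reads. The smallest count above 0 in each of the 22 libraries was 6, so a sequence listed at 0 can hide up to 5 reads. A name sums several sequences, so its hidden reads can add up, and no limit is set on a name at 0. Each breed has its own deposited table, so breed and anything else handled breed by breed cannot be told apart. The 5 adipocyte miRNAs listed as markers were all present, at a summed 239191 to 585143 counts per 1000000 named reads (CPM). Of the skeletal muscle list, miR-1 and miR-133b were not found. The liver list was miR-122, miR-192 and miR-194; the tables hold miR-194a, which is outside that list and its sum, at medians of 272.2 CPM in Hampshire, 276.8 in Pietrain and 283.3 in Large White. The labels of 2 Large White libraries, thick replicate 1 and thin replicate 1, may be exchanged: the authors' deposited fold changes for Large White correlated with the counts at r = 0.501 by the labels and r = 0.805 with the 2 exchanged, across 1123 sequences.

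miR-532-5p was present in every library and was higher in Hampshire fat than in Large White or Pietrain fat. Its CPM are relative to named reads after TMM scaling. In Hampshire thick fat the 5 libraries had 1989, 2152, 1623, 2091 and 2086 CPM, and in Hampshire thin fat the 2 had 2293 and 2414 CPM. In Large White thick fat the 4 libraries had 1434, 1416, 1338 and 1514 CPM, and in Large White thin fat the 4 had 1136, 1593, 1401 and 1528 CPM. After TMM scaling, every Hampshire library lay above every Large White library, the nearest at 1623 and 1593 CPM. Such a separation upwards was seen for 2.91% of the 206 names tested. Without that scaling the 2 breeds overlapped. Hampshire thick replicate 5 held 1654 miR-532-5p reads among 998924 named reads. That is a smaller share than the 3393 among 1992025 in Large White thick replicate 3. In Pietrain thick fat the 4 libraries had 2015, 1495, 1343 and 1824 CPM, and in Pietrain thin fat the 3 had 1409, 1522 and 1762 CPM. The Pietrain range reached into that of both other breeds.

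Ordered by mean, the groups ran from Large White thin (1414 ± 202 CPM, SD, n = 4) and Large White thick (1426 ± 72.3, n = 4) through Pietrain thin (1564 ± 180, n = 3) and Pietrain thick (1669 ± 306, n = 4) to Hampshire thick (1988 ± 213, n = 5) and Hampshire thin (2354 ± 85.5, n = 2). Each neighbouring pair in this order overlapped in range except the last. How many names separated the Hampshire groups in this way was not counted, and miR-532-5p was not called there (edgeR adjusted p = 0.959). By breed, the means were 1420 ± 141 CPM in Large White (n = 8), 1624 ± 246 in Pietrain (n = 7) and 2093 ± 251 in Hampshire (n = 7).

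**Figure D1:**
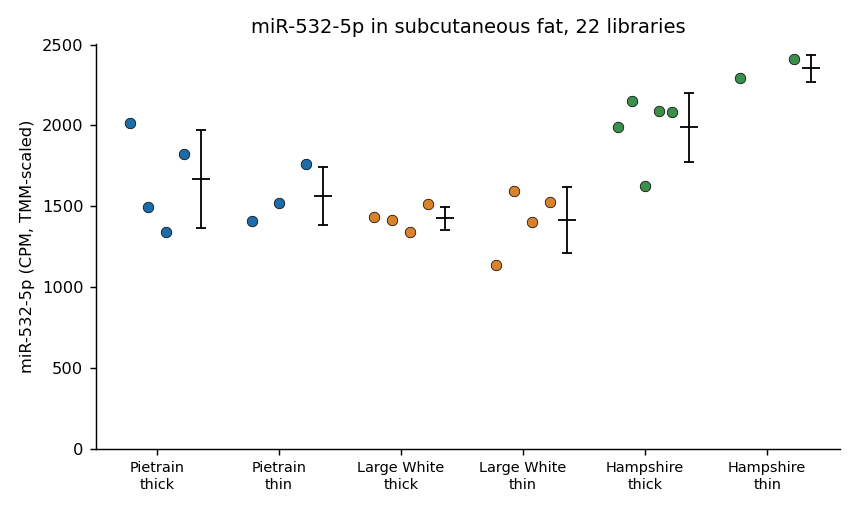
Level of miR-532-5p in CPM after TMM scaling for each library (points) in the 6 groups, with the group mean and SD (bars). On this scale the 7 Hampshire libraries sit between 1623 and 2414 CPM, all above the 8 Large White libraries, which end at 1593 CPM.

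The fit over all 22 libraries gave miR-532-5p a log2 fold change of 0.61 ± 0.11 (SE; 95% confidence interval 0.38 to 0.84) for Hampshire against Large White, with an adjusted p of 0.00068 from edgeR's quasi-likelihood test. It was 1 of 19 names called higher in that comparison, 9.22% of 206 tested, with 17.5% called in either direction. Against Pietrain the log2 fold change was 0.42 ± 0.11 (0.18 to 0.66), with an adjusted p of 0.0135 from the same edgeR test, and 10.7% of names were called higher. With edgeR, none of the other 3 tested members was called in either comparison, while DESeq2 called miR-500 in both, as given with its values. Between Pietrain and Large White the log2 fold change was 0.19 ± 0.11 (-0.04 to 0.41; edgeR adjusted p = 0.669), and edgeR called 0 of 206 names (0%), with 7 called by DESeq2.

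The size of the breed difference depended on how libraries were scaled. With library totals only, the log2 fold change fell to 0.33 against Large White (edgeR adjusted p = 0.0412), where the median over all names also moved from -0.02 to -0.29. That scaling gave 13 names higher and 32 lower, against 19 and 17 with TMM. Against Pietrain it fell to 0.21 (edgeR adjusted p = 0.199) with library totals and to 0.18 (edgeR adjusted p = 0.337) with upper quartile scaling. Leaving out 1 of 7 libraries in turn (Large White thin replicate 1 or 4, Hampshire thick replicate 1, 2 or 4, or either Hampshire thin library) ended the call against Pietrain, at 0.31 to 0.42 with edgeR adjusted p of 0.0582 to 0.0917. Within thick fat alone the differences were 0.46 (edgeR adjusted p = 0.0626) against Large White and 0.25 (edgeR adjusted p = 0.295) against Pietrain. Within thin fat alone they were 0.63 (edgeR adjusted p = 0.0997) and 0.45 (edgeR adjusted p = 0.238).

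Summed levels of markers of other cells are given by breed, and the sums were not tested. The liver list summed to a median of 3354 CPM in Hampshire (20.1 to 26745), 386.9 CPM in Pietrain (0 to 7807) and 375.8 CPM in Large White (0 to 3675). The skeletal muscle list had medians of 1101, 474.5 and 381.3 CPM, and the adipocyte list 526881, 335715 and 311455 CPM, in the same order of breeds. The leukocyte list had medians of 534.1, 749.8 and 660.3 CPM, the red blood cell list 612.4, 796.3 and 503.8 CPM, and the endothelial miR-126 42611, 41443 and 41752 CPM. The ranges of the liver sum overlapped between breeds. For Hampshire against Large White, miR-122-3p and miR-192 of that list were called higher (edgeR adjusted p = 0.036 and 0.0396) and miR-122 was not called (0.108). Against Pietrain none of these 3 names was called (edgeR adjusted p = 0.408, 0.06 and 0.387). Of the adipocyte list, miR-148a-3p and miR-455-5p were called higher in Hampshire in both comparisons. Their edgeR adjusted p were 0.00068 and 0.000847 against Large White and 0.000543 and 5.34e-05 against Pietrain. Against Pietrain alone, miR-499-5p (muscle), miR-144 (red blood cell) and miR-223 (leukocyte) were called higher (edgeR adjusted p = 0.00191, 0.00452 and 0.0275). There miR-486 (red blood cell) was called lower (edgeR adjusted p = 0.0411). miR-223 was at 0 in 13 libraries. The other leukocyte names tested against Pietrain, miR-142-3p, miR-142-5p, miR-150 and miR-155-5p, had fitted log2 fold changes below 0. None of these was called. With the 2 libraries highest in miR-122, a liver miRNA, left out, Hampshire exceeded Large White by 0.61 and Pietrain by 0.35 on the log2 scale. Those left out were Hampshire thick replicate 3, at 1623 CPM of miR-532-5p, and Hampshire thin replicate 1, at 2293 CPM. Hampshire thin fat has 2 libraries, so a single library then stood for that group. Whether liver material plays a part was not tested by this. The part of the other lists in the result was not tested. In bulk tissue, fewer cells of a type and less RNA per cell cannot be told apart.

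In the edgeR fits with all libraries of each comparison, none of the members tested was called between thick and thin fat. miR-500 was tested only in Hampshire, over all breeds and in the interaction of breed and fat class, and miR-500-5p nowhere. Thick minus thin, miR-532-5p gave a log2 difference of 0.10 ± 0.19 among Pietrain pigs, 0.02 ± 0.14 among Large White pigs and -0.21 ± 0.23 among Hampshire pigs (SE). Over all breeds it was -0.03 ± 0.09 (95% confidence interval -0.22 to 0.15; edgeR adjusted p = 0.997). For the interaction of breed and fat class its edgeR adjusted p was 0.984. These comparisons called 0 of 161, 170, 172, 206 and 206 names (0% each) with edgeR, while 4, 2, 5, 5 and 11 names had an unadjusted p under 0.05. DESeq2 called 1, 0, 3, 2 and 2. The direction in Large White is not settled, since it became -0.10 when the 2 possibly exchanged libraries were swapped.

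miR-362 was a low-level member, above 0 in 20 libraries at 9 to 80 reads. In Pietrain its 7 libraries ran from 13.5 to 24.2 CPM with a median of 18.9. In Large White 7 libraries ran from 14.4 to 19.0 CPM and thick replicate 1 was at 0. In Hampshire 6 libraries ran from 10.6 to 17.1 CPM and thick replicate 2 was at 0. Both libraries at 0 were shallow: at the median level of miR-362 they would have held about 7.28 and 9.43 reads. The fitted log2 difference was -0.35 ± 0.65 for Hampshire against Large White, -0.86 ± 0.68 for Hampshire against Pietrain and 0.51 ± 0.60 for Pietrain against Large White. The intervals are wide, the second running from -2.28 to 0.56, and edgeR adjusted p were 0.823, 0.401 and 0.907.

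miR-660 was also low, above 0 in 20 libraries at 7 to 33 reads, and at 0 in Hampshire thick replicates 1 and 2. Where present it ran from 8.08 to 19.95 CPM in Pietrain, 8.32 to 13.9 CPM in Large White and 5.32 to 22.1 CPM in Hampshire. The ranges of the 3 breeds overlapped. Its fitted log2 differences were -0.15 ± 0.72, -0.28 ± 0.74 and 0.13 ± 0.68 in the same order of breed pairs, with edgeR adjusted p of 0.962, 0.86 and 1. For thick against thin fat over all breeds the values were -0.24 ± 0.50 for miR-362 and -0.33 ± 0.55 for miR-660.

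**Figure D2:**
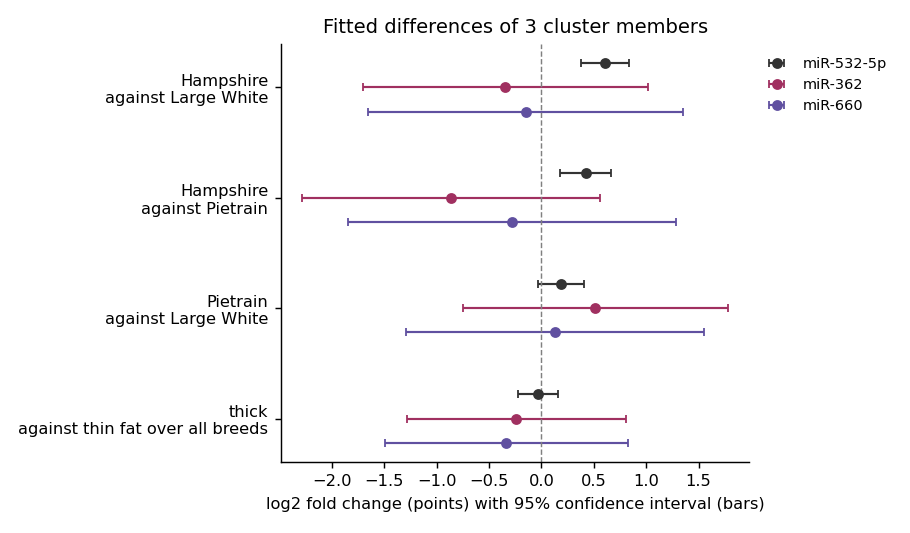
Fitted log2 fold changes (points) with 95% confidence intervals (bars) of miR-532-5p, miR-362 and miR-660 in the 3 breed comparisons and in thick against thin fat over all breeds. Only the intervals of miR-532-5p for Hampshire against Large White (0.38 to 0.84) and Hampshire against Pietrain (0.18 to 0.66) lie clear of 0 among the 12 drawn.

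Relative to miR-362, miR-532-5p was higher in Hampshire fat, a comparison within each library that needs no scaling between libraries. The median number of miR-532-5p reads per miR-362 read was 168 in Hampshire, 84.2 in Large White and 76.2 in Pietrain. The log2 of this ratio was 7.24, 7.25, 6.93 and 7.52 in Hampshire thick fat and 7.55 and 7.82 in Hampshire thin fat. In Large White it was 6.40, 6.52 and 6.72 in thick fat and 6.31, 6.39, 6.36 and 6.49 in thin fat. In Pietrain it was 6.38, 5.99, 6.17 and 7.08 in thick fat and 6.25, 6.05 and 6.54 in thin fat. All Hampshire libraries with both names lay above all Large White ones, and 1 Pietrain library reached into the Hampshire range. How often ratios of other pairs of names separated in this way was not counted.

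The mean log2 ratio was 7.39 ± 0.31 in Hampshire (SD, n = 6), 6.45 ± 0.14 in Large White (n = 7) and 6.35 ± 0.37 in Pietrain (n = 7). Hampshire exceeded Large White by 0.93 (two-sided exact permutation test, p = 0.000583, the smallest that test can give; adjusted p = 0.00408 over 7 tests). Hampshire exceeded Pietrain by 1.03 (exact permutation p = 0.00175, adjusted p = 0.00612). Pietrain minus Large White was -0.10 (exact permutation adjusted p = 0.622). Some Hampshire libraries were shallow; in libraries of more than 1000000 reads the differences were 0.91 (exact permutation adjusted p = 0.00758) and 1.12 (exact permutation adjusted p = 0.0238). In thick fat alone they were 0.69 (4 Hampshire against 3 Large White libraries) and 0.83 (4 against 4 Pietrain libraries), which did not pass (exact permutation p = 0.0571 for each, adjusted p = 0.171 over 6 tests). Hampshire and Large White did not overlap there (6.93 to 7.52 and 6.40 to 6.72). With 35 and 70 arrangements these tests had hardly any room to pass, so they cannot show whether the difference is lost in thick fat. Thin fat alone, with 2 Hampshire libraries, was not run.

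**Figure D3:**
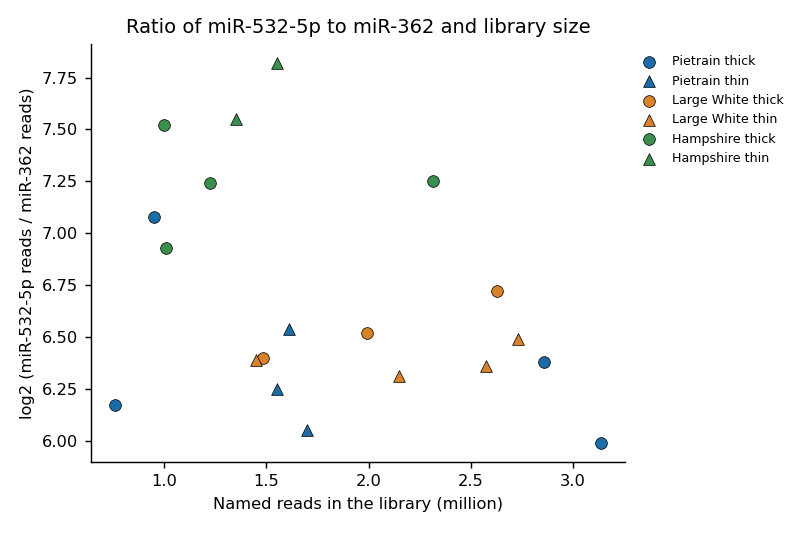
Log2 ratio of miR-532-5p reads to miR-362 reads in the 20 libraries with both, against named reads per library (axis scaled by 1000000); colour gives the breed and shape the fat class. Hampshire libraries lie between 6.93 and 7.82, Large White libraries between 6.31 and 6.72, and 1 Pietrain library with few reads lies at 7.08.

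The ratio to miR-660 did not separate the breeds. Its log2 mean in Hampshire exceeded that in Large White by 0.53 and that in Pietrain by 0.42 (exact permutation adjusted p = 0.175 and 0.339). The ratio to miR-500 could be compared only over 3 Hampshire and 3 Large White libraries, where p cannot go below 0.1. The difference was 0.73 (exact permutation p = 0.1, adjusted p = 0.175).

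miR-500 was present at a narrow level in 7 libraries and listed at 0 in 15. Its level was 111 CPM in Pietrain thin replicate 1. In Large White thick fat it was 87.3, 113 and 98.8 CPM in replicates 1, 3 and 4. In Hampshire it was 92.8 and 93.5 CPM in thick replicates 1 and 3 and 65.5 CPM in thin replicate 2. The 7 libraries came from all 3 breeds and both fat classes. The 15 libraries at 0 would have held about 40.3 to 293 reads at the median level of 93.5 CPM. Of the 36 names within 2-fold of that level, 23 were at 0 in no library and 6 were at 0 in 15 or more.

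Groups with every library at 0 give no usable fold change for miR-500, so only its p-values are given. For Hampshire against Large White, Hampshire against Pietrain and Pietrain against Large White, edgeR's adjusted p was 0.2, 0.207 and 1. DESeq2 called the first pair of these comparisons (adjusted p = 0.000262 and 0.000247), and over the alternatives run the adjusted p went from 0.000262 to 1 and from 0.000247 to 1. For the interaction of breed and fat class edgeR gave an adjusted p of 0.673 for miR-500. In Large White the miR-500 reads came from 3 of 4 thick and 0 of 4 thin libraries, and the name passed the count filter there only in some settings. Without thick replicate 2, the single thick library at 0, edgeR's adjusted p was 0.00182. That fit drops the library that goes against the split, so its p-value is no support. In the other settings where miR-500 was tested there, edgeR's adjusted p was 0.974 to 0.998. Thick replicate 1, with 44 reads, is 1 of the 2 possibly exchanged libraries, and after the exchange reads would come from 2 of 4 thick and 1 of 4 thin libraries.

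miR-500-5p, named for the other arm, had 7 reads in Hampshire thick replicate 2 and 6 in Hampshire thin replicate 1. It was at 0 in the other 20 libraries, did not pass the filter and was not tested. Neither library with miR-500-5p had reads of miR-500.

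**Figure D4:**
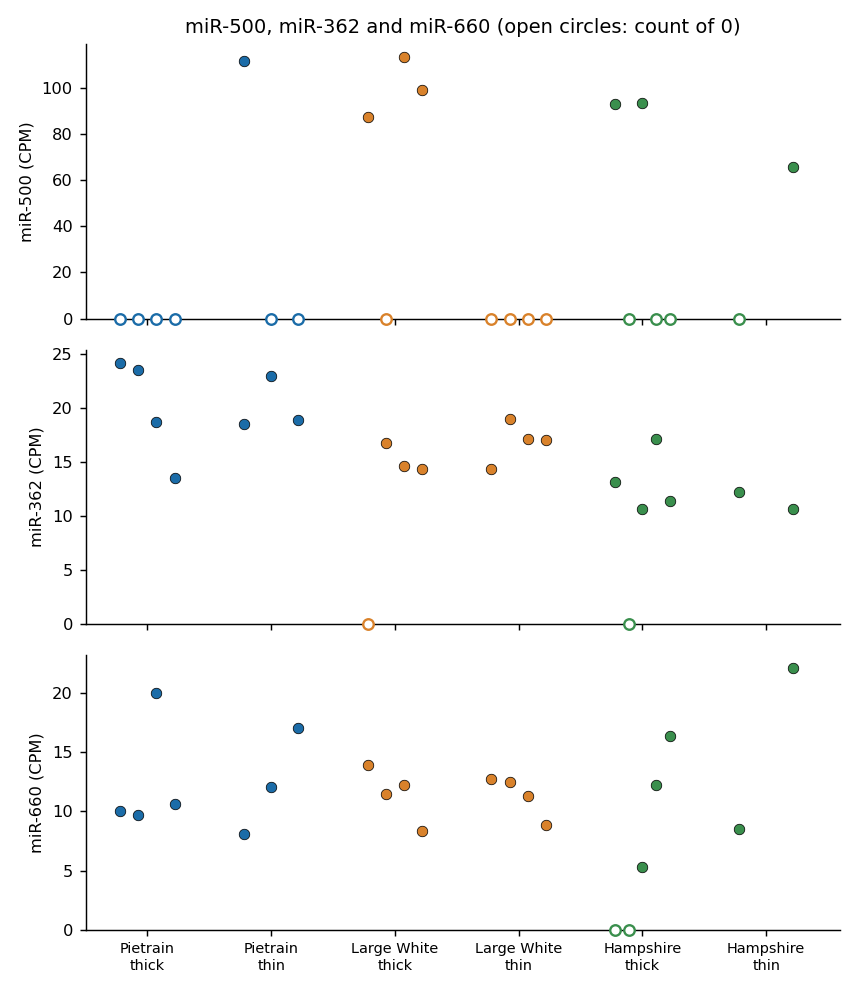
Levels of miR-500, miR-362 and miR-660 in CPM for each library (filled points) in the 6 groups; open circles are libraries with a count of 0. miR-500 is at 0 in 15 libraries and between 65.5 and 113 CPM in the other 7, while miR-362 and miR-660 are each at 0 in 2 libraries.

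The 37 sequences of miR-532-5p differed mainly at the 3′ end, and these forms differed between breeds. The most abundant sequence held 73.2% of its reads, and 3 further sequences are shown: the next most abundant pair and a form seen in a single group. Capitals again mark the seed.
U22C form: cAUGCCUUgaguguaggaccgc
extra U form: cAUGCCUUgaguguaggaccguu
C1A form: aAUGCCUUgaguguaggaccgu
Positions count from 1 at the 5′ end of the most abundant sequence. The U22C form held 11% of reads and the form with an extra U held 4.73%, and neither alters the seed.

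Forms longer at the 3′ end made up 5.92 ± 0.90% of miR-532-5p reads in Hampshire (SD, n = 7), 7.76 ± 0.61% in Large White (n = 8) and 9.00 ± 1.65% in Pietrain (n = 7). The Hampshire share ran from 4.94 to 7.32%, that of Large White from 6.78 to 8.71% and that of Pietrain from 7.41 to 12.2%. Hampshire and Pietrain did not overlap, and how many other miRNAs separated in this way was not counted. The difference was -1.84 percentage points between Hampshire and Large White and -3.08 between Hampshire and Pietrain (two-sided exact permutation test, adjusted p = 0.00466 for each, over 12 tests of 4 forms chosen after the shares were seen). In thick fat alone these were -1.49 and -2.45 points (exact permutation adjusted p = 0.159 and 0.0952). With 5 Hampshire and 4 thick libraries of each other breed, few arrangements exist and the tests had little room to pass. Not passing there does not show that the differences were lost. The same direction was common: among 32 other miRNAs with at least 723 reads in every library, the longer forms had a lower mean share in Hampshire than in both other breeds in 25.

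Forms with a changed last base made up 16.6 ± 1.13% of reads in Hampshire, 15.4 ± 1.64% in Large White and 14.3 ± 0.84% in Pietrain. Hampshire exceeded Pietrain by 2.27 points (exact permutation adjusted p = 0.00699). In thick fat alone it did so by 2.64 points (exact permutation adjusted p = 0.0952), with the same small number of arrangements. How often other miRNAs differed in this way between breeds was not counted. The other pairs did not pass the test, except that Hampshire exceeded Large White by 1.76 points in place of 1.23 (exact permutation adjusted p = 0.0122) without Large White thick replicate 1, whose share was 19.1%. The share of the most abundant sequence itself was 73.8 ± 1.89% in Hampshire, 73.2 ± 0.83% in Large White and 72.1 ± 1.64% in Pietrain, with exact permutation adjusted p of 0.184 to 0.391 for the 3 pairs.

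**Figure D5:**
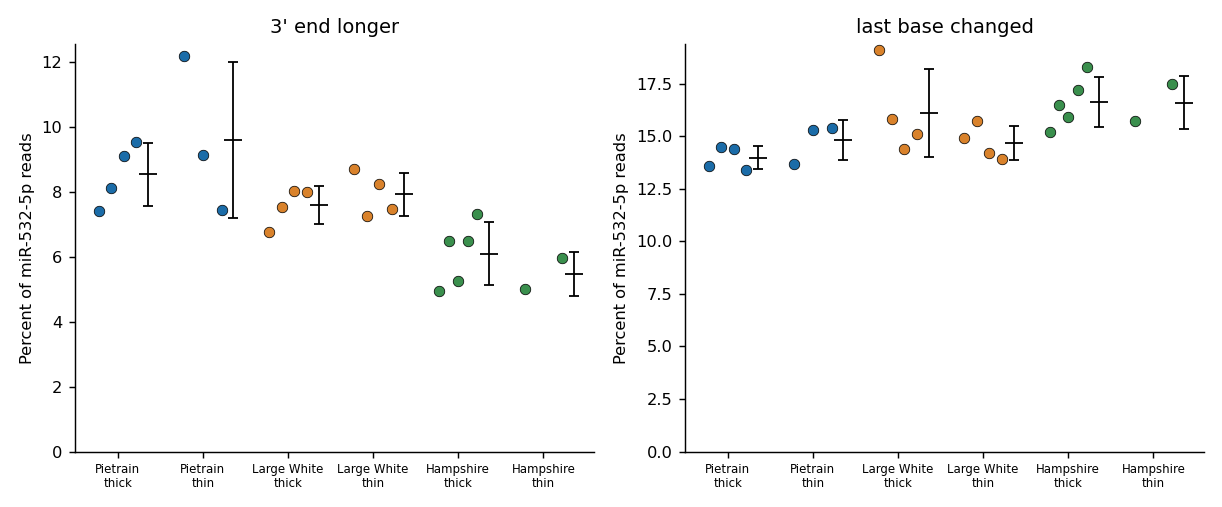
Percent of miR-532-5p reads in forms with a longer 3′ end (left) and with a changed last base (right) for each library (points), with the group mean and SD (bars). The longer forms run from 4.94 to 7.32% in Hampshire and from 7.41 to 12.2% in Pietrain.

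In Pietrain the most abundant sequence held 72.7 to 73.7% of miR-532-5p reads in thick fat and 70.0 to 70.8% in thin fat, so these groups did not overlap. The same separation, with thick higher, was seen in 7 of 32 other miRNAs with at least 723 reads in every library. Over all breeds, thick exceeded thin fat by 0.68 points (exact permutation p = 0.287, with fat classes permuted within breed over 51450 arrangements). The C1A form was above 0 only in Pietrain thin fat, with 19, 15 and 18 reads, and was at 0 in the other 19 libraries. In the authors' deposited table for Pietrain it had a log2 fold change of 6.54 ± 1.61 (their standard error), thin against thick, and an adjusted p of 0.00447. It was the single member sequence with an adjusted p under 0.05 among the 31 of 50 listed there that had an adjusted p. Of all 7039 sequences there, 89 passed. These values rest on the same reads by which the C1A form was picked, so they are no separate support. How many sequences were listed in a single group was not counted. A C1G form had 13 and 10 reads in Pietrain thick replicates 1 and 2 and 6 in Pietrain thin replicate 2, and was at 0 elsewhere. In the authors' deposited tables for Large White and Hampshire none of 49 and 45 member sequences passed, where 0 of 6796 and 1 of 5391 sequences did. The most abundant miR-532-5p sequence had a deposited log2 fold change, thin against thick, of -0.19 ± 0.20, 0.06 ± 0.16 and 0.18 ± 0.26 in the authors' deposited tables for Pietrain, Large White and Hampshire.

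The 17 sequences of miR-500 were spread over 7 libraries, with 5 to 13 listed in each, and included a base change that reaches the seed. The pair below differs by A2G, counted from the 5′ end of the form with A, and the capital marks the changed base.
form with A: aAugcaccugggcaaggauucu
form with G: aGugcaccugggcaaggauucu
The form with A had 105 reads and the form with G had 53. In forms that start 1 base later the same base is the first, outside the seed, and the change is A1G. Over all forms, G stood there in 145 of 1237 reads, 11.7%. By library the share was 9.33% in Pietrain thin replicate 1, 0%, 11.1% and 9.58% in Large White thick replicates 1, 3 and 4, 13.3% and 19.5% in Hampshire thick replicates 1 and 3, and 6.98% in Hampshire thin replicate 2. The source of the G was not tested. Forms with a longer 5′ start, which moves the seed by 1 base, held 16.1% of miR-500 reads.

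miR-660 was listed in 2 forms that never appeared in the same library. They are shown because they differ by a single 3′ base, with the seed in capitals.
22-base form: uACCCAUUgcauaucggaguug
23-base form: uACCCAUUgcauaucggaguugu
The 22-base form alone was listed in 14 libraries, at 11 to 31 reads. The 23-base form alone was listed in 6 libraries, at 7 to 33 reads: Pietrain thick replicate 2, Large White thick replicate 1, Large White thin replicates 1 and 3, Hampshire thin replicate 1 and Hampshire thick replicate 4. No library held both. Among 159 names whose 2 most abundant sequences were each above 0 in at least 5 libraries, 6 names including miR-660 showed such exclusion.

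Rank correlations between the members present in most libraries were weak. Spearman's rho of log2(CPM + 1) over the 22 libraries was -0.30 between miR-532-5p and miR-362, -0.13 between miR-532-5p and miR-660 and 0.14 between miR-362 and miR-660. After each breed's mean was subtracted these became 0.08, 0.09 and 0.13, so the first pair of values changed sign. With the names at 0 in most libraries, miR-532-5p had a rho of -0.20 for miR-500 (-0.23 within breed) and 0.45 for miR-500-5p (0.17 within breed), the latter at 0 in 20 libraries. These are descriptions, since libraries share breed and depth. The names most like miR-532-5p were let-7i-3p (rho 0.785), miR-381-3p (0.752) and miR-27a (0.746). After each breed's mean was subtracted these became 0.136, 0.659 and 0.298. For miR-362 they were miR-454 (0.743), miR-452 (0.724) and miR-17-5p (0.704), which became 0.151, 0.128 and 0.318 within breed. For miR-660 they were miR-30b-5p (0.746), miR-224 (0.689) and miR-218-5p (0.563), which became 0.586, 0.597 and 0.729. For miR-500 the highest were miR-139-3p (0.663), miR-1343 (0.613) and miR-7134-5p (0.604), which became 0.58, 0.589 and 0.662. Presence and absence of miR-500 matched best with miR-345-3p, which differed from it in 4 libraries.

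Of the other cluster genes listed, miR-188 and miR-501 were not found in the tables. Among 33 other X-linked miRNAs listed, 20 names were present and 16 were tested. For Hampshire against Large White 1 rose and 2 fell, where 17.5% of all names were called, with a median log2 fold change of -0.15 over the 16 and -0.02 over all names. The one that rose was miR-1468, at 0.78 ± 0.25 (edgeR adjusted p = 0.036). For Hampshire against Pietrain 2 rose and 2 fell, where 18.9% of all names were called, with a median of -0.18 over the 16 and -0.04 over all names. The risers were miR-450a, at 1.13 ± 0.24 (edgeR adjusted p = 0.0027), and miR-223, at a mean of 8.73 CPM in Hampshire and listed at 0 in Pietrain. The names that fell were the same in both comparisons: miR-452, at means of 2.03, 48.7 and 119 CPM in Hampshire, Large White and Pietrain, and miR-450c-5p, at 59.2, 325 and 240 CPM. miR-452 was at 0 in 9 libraries and miR-450c-5p in 6, so these means mix libraries at 0 with libraries at higher levels. None of the 16 passed for Pietrain against Large White or for fat class.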

How the data were processed

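Small RNA of subcutaneous fat was sequenced in 22 libraries. Sscrofa10.2, bcl2fastq, FastQC and DESeq2 appear in the submitters' processing notes; the trimmer, aligner and counting settings are not given in the sources used here. The authors deposited raw counts per distinct sequence, 1 table per breed, and tables of thick and thin comparisons. In these, per the file headers, the authors give a mean signal per sequence, a test score, a log2 fold change and its SE, and p-values before and after adjustment.

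Rows were summed per miRNA name after prefixes were removed; 80 of 8489 sequences without a name (0.048% of reads) were left out. Names were tested with edgeR 4.0.16 (quasi-likelihood, TMM scaling, filterByExpr with a minimum count of 10, Benjamini-Hochberg, threshold 0.05) in R 4.3.3. Breed contrasts weighted thick and thin fat equally over 6 groups. Shares and ratios were compared with exact permutation tests over libraries in Python 3.11.15. DESeq2 1.42.0 and limma 3.58.1 were alternatives, and the fits were tested on simulated data. Replicate numbers follow accession order. The labels do not say how pigs were sampled beyond breed and fat class, so a p-value speaks only of the spread among the libraries given. All members are described; for each, the 3 names most alike by rho and, where it was at 0, by libraries at 0 were named. The members and lists were chosen with earlier results of these data known.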

Additional observations from a re-analysis of the deposited data

Results flagged for a closer look

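Each of 40 sets of values by group was searched for a library far from the rest of its group, a search in which chance alone gives about 1 in 20. miR-362 in Large White thick replicate 1 was listed at 0 CPM, against 14.4 to 16.8 CPM in the other 3 libraries. miR-660 in Pietrain thick replicate 3 was 19.95 CPM, against 9.69 to 10.6 CPM in the other 3. The share of miR-532-5p reads in forms shorter at the 3′ end in Pietrain thick replicate 4 was 2.01%, against 1.58 to 1.59% in the other 3.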

How the results depend on the processing

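No paired analysis was possible because replicate numbers only follow accession order and the labels tie no library of one group to a library of another. The higher miR-532-5p level and the higher ratio to miR-362 in Hampshire than in Large White kept direction under every alternative run. The ratio did not pass in thick fat alone (0.693 against Large White and 0.833 against Pietrain), where 35 and 70 arrangements left hardly any room to pass. It kept its call in the other alternatives run, which did not include thin fat alone. The level lost its call within thick fat (0.463) and thin fat (0.626). Against Pietrain the level lost it with upper quartile scaling (0.18), library totals (0.211), thick fat (0.247), thin fat (0.452) and after dropping the 2 libraries richest in miR-122 (0.354), and leaving out 1 library gave 0.313 to 0.473. These values are log2 differences. Thick fat alone for the ratios and the forms, libraries over 1000000 reads, and the liver miRNA setting were chosen after the data were seen.

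Thick against thin fat, the miR-532-5p difference in Large White changed sign with relative log expression scaling (-0.00163), upper quartile scaling (-0.0279), library totals (-0.0626), no filter (-0.00123), a filter of 10 CPM (-0.0227), DESeq2 (-0.000387), the exchange of 2 libraries (-0.102) and the most abundant sequence only (-0.0551), and ran from -0.0623 to 0.0898 when 1 library was left out. In Pietrain it then ran from -0.00178 to 0.191. Over all breeds it became 0.00915 with library totals, and that of miR-362 became 0.0277 with the exchange. For miR-660, Hampshire against Large White became 0.311 in thin fat, 0.0775 without the 2 libraries richest in miR-122 and 0.0818 without libraries at 0, and ran from -0.629 to 0.0849 with 1 library left out. Hampshire against Pietrain became 0.142 in thin fat, and Pietrain against Large White ran from -0.024 to 0.245 with 1 library left out. Its log2 ratio became -0.0171 for Hampshire minus Pietrain without those 2 libraries and -0.115 for Pietrain minus Large White with the most abundant sequence only. None of these sign changes involved a called value.

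DESeq2 called 1 name for fat class in Pietrain, 3 in Hampshire, 2 over all breeds and 2 for the interaction, and 57 for Hampshire against Large White and 7 for Pietrain against Large White. It called miR-500 at adjusted p = 0.000262 and 0.000247 for Hampshire against Large White and Pietrain. Hampshire against Large White gave 11 names in thick and 16 in thin fat, and Hampshire against Pietrain 14 and 17. With 1 library left out, counts ran from 0 to 2 in Pietrain and for the interaction, from 0 to 1 in Large White, in Hampshire and over all breeds, and from 22 to 40 and 22 to 43 for Hampshire against Large White and Pietrain; the low counts came without Hampshire thin replicate 2. Fewer libraries entered these fits, and the cause of the other changes was not tested.

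Counting only forms nested at the 3′ end, the share of the most abundant miR-532-5p sequence passed the exact permutation test for all 3 pairs, at 1.68 (Hampshire minus Large White), 3.18 (Hampshire minus Pietrain) and -1.5 points (Pietrain minus Large White). The share shorter at the 3′ end, Pietrain minus Large White, became -0.109 points in thick fat and ran from -0.076 to 0.158 with 1 library left out. Depth limits miR-362, miR-660 and miR-500-5p most, since a few reads decide whether they are listed.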
